A study of Mus musculus with 17 samples.

Results

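The 31 genes described here mark the oligodendrocyte lineage, from its precursor cells to the cells that wrap axons in myelin. They were taken by symbol from a list of genes known for this lineage. The list is not defined by measured values, although it was drawn up with earlier results of these data known, and each symbol matched 1 of the 55471 genes of the count table. They fall into 23 genes of mature, myelinating oligodendrocytes, 3 transcription factors used along the whole lineage and 5 genes of precursors and of committed precursors. Each of the 31 had counts in every library, with 15 as the lowest count of a member in a library.

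The data were gene counts from 17 RNA libraries of mouse hippocampus, each from 1 male animal of 3 to 6 months, of strain C57BL/6 by the labels and C57BL/6J by the methods of the study. CBP-ifKO mice carried a floxed Crebbp gene and the creERT2 recombinase under the Camk2a promoter, so that CBP, a lysine acetyltransferase that acts as a transcriptional coactivator, was truncated in adult forebrain excitatory neurons after tamoxifen. Oligodendrocytes are not cells in which this promoter is meant to act. All groups, the Control littermates included, received 5 doses of tamoxifen. The methods of the study describe them as negative for creERT2, while the label of these samples also names Camk2a_creERT2. Kindling consisted of repeated injections of pentylenetetrazole (PTZ), a blocker of GABA-A receptors, on alternate days. The PTZ0 and PTZ45 groups underwent it, and 1 week later PTZ0 mice were given saline and PTZ45 mice were given PTZ at 45 mg/kg, while Sal mice were never kindled and were given saline, with dissection 45 min afterwards in each case. The 8 Control libraries were 3 of Sal, 3 of PTZ0 and 2 of PTZ45, and the 9 CBP-ifKO libraries were 3 of each treatment.

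Oligodendrocytes enclose axons in a compact membrane that speeds conduction. They arise throughout adult life from precursor cells that carry the receptor PDGFRA and the proteoglycan NG2, encoded by Cspg4, and that receive synapses from neurons. A precursor that commits to differentiation passes through a short stage marked by Gpr17, Enpp6 and Bcas1 before it makes myelin proteins such as MBP, and neuronal activity is known to influence this sequence. In whole hippocampal tissue, fewer cells of a type and less RNA per cell cannot be told apart.

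Library totals ran from 5831992 to 18735643 counts, and the 31 genes together took 0.285% to 0.381% of the counts of a library. Crebbp measured 1824 to 2429 normalized counts in the Control libraries and 1061 to 1337 in the CBP-ifKO libraries, so no library went against its label. Fos, an immediate early gene of neuronal activity, measured 2915 and 2483 in Control PTZ45, 163 to 288 in CBP-ifKO PTZ45 and 13.4 to 62.4 in the 12 libraries without a last PTZ injection. In 5 libraries (Control Sal replicate 2, CBP-ifKO Sal replicate 1, Control PTZ0 replicate 2, CBP-ifKO PTZ0 replicate 3 and CBP-ifKO PTZ45 replicate 2) markers of choroid plexus, the secretory epithelium of the ventricles, summed to 962 to 4009 CPM, against 44.65 to 111 in the other 12. By the library names, Control Sal and Control PTZ0 shared a sequencing lane, CBP-ifKO Sal and Control PTZ45 shared another, and CBP-ifKO PTZ0 and CBP-ifKO PTZ45 a further lane. Comparisons of genotype within a treatment therefore ran across lanes, and lane and genotype cannot be told apart in them. PTZ45 against Sal in both genotypes, PTZ0 against Sal in CBP-ifKOs and PTZ45 against PTZ0 in Controls ran across lanes as well.

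The most abundant of the 31 were mature genes, although the precursor gene Bcas1 stood above several of that class. Per kilobase of exon, Mbp, encoding a protein that joins the inner faces of the myelin membrane, stood highest at 1456 ± 169 normalized counts (SD, n = 17). Mobp, another structural protein of central myelin, followed at 929 ± 125, then Trf, the iron carrier transferrin, at 822 ± 88.0, Car2, a carbonic anhydrase, at 798 ± 76.6, Mal, a raft protein of the myelin membrane, at 733 ± 98.7, and Cnp, the myelin phosphodiesterase, at 635 ± 79.3. From Mobp to Cnp the ranges of neighbours overlapped, so the order among them is not larger than the spread of the libraries. The lowest mature gene was Nkx6-2, a homeobox factor, at 16.4 ± 3.97, and it overlaps Inpp5a on the opposite strand, so its reads may be mixed with those of Inpp5a if the counting did not use strand. Among the factors of the whole lineage Olig1 measured 108 ± 20.1, Sox10 68.6 ± 9.74 and Olig2 50.1 ± 6.36 per kilobase. Of the precursor genes, Bcas1 at 325 ± 45.1 stood above Pdgfra at 90.1 ± 11.4, Gpr17 at 66.2 ± 9.27, Cspg4 at 23.5 ± 4.12 and Enpp6 at 15.6 ± 2.597.

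**Figure D1:**
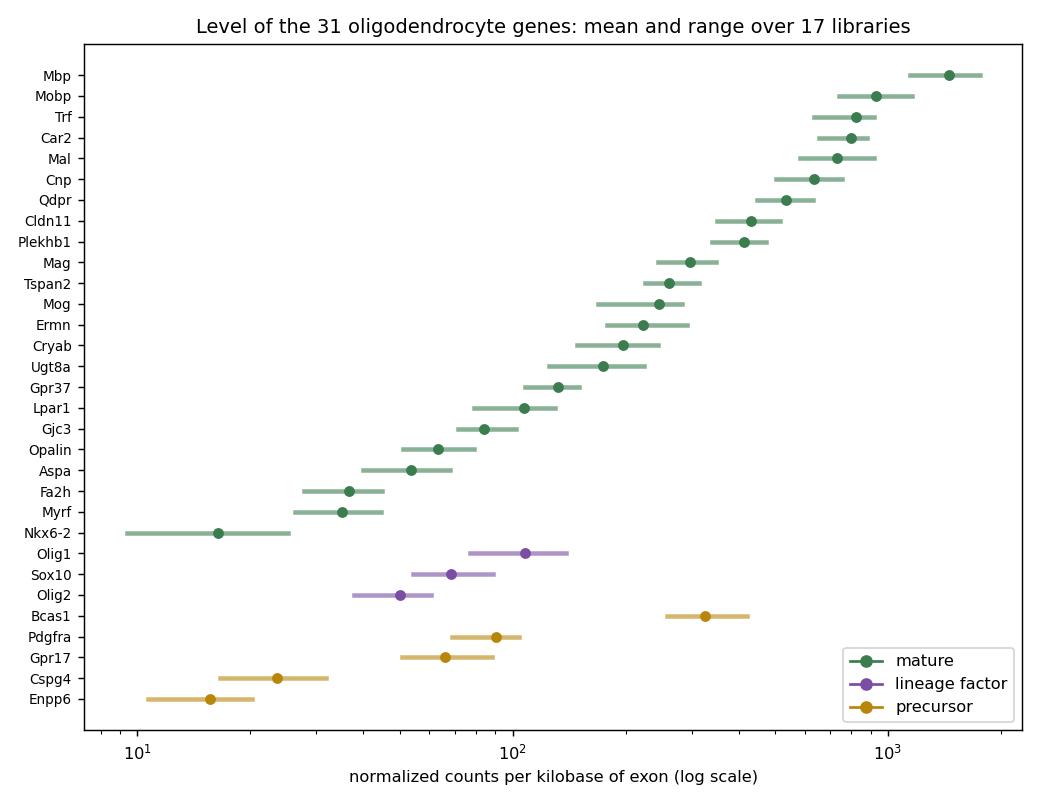
Normalized counts per kilobase of exon on a log axis for the 31 genes, with the mean over 17 libraries as a point and the range as a bar, colored by class. The mature genes run from Mbp at 1456 to Nkx6-2 at 16.4, and the precursor genes other than Bcas1 lie at 90.1 or below.

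Of the 5 precursor genes 3 were lower in CBP-ifKOs than in Controls when all treatments were fitted together. Pdgfra fell by 0.30 on the log2 scale, Cspg4 by 0.31 and Gpr17 by 0.25, while Bcas1 and Enpp6 did not pass the test. Olig1 of the lineage factors fell by 0.28, and none of the 23 mature genes passed. The 4 called members of 31 compare with a background in which 19.3% of the 18682 genes tested were called and 11.5% were called lower, and 12 of 31 had an unadjusted p under 0.05 beside 29.9% of all genes, so the number of calls is near that of genes in general and is not a result about the 31 as a set.

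PDGFRA is the receptor through which platelet-derived growth factor keeps precursors dividing. In normalized counts, Pdgfra (chr5:75152292-75198215, GRCm38) measured 949, 978 and 1020 in Control Sal, 939, 1024 and 1037 in Control PTZ0, 1036 and 1045 in Control PTZ45, 908, 708 and 784 in CBP-ifKO Sal, 689, 841 and 890 in CBP-ifKO PTZ0, and 810, 853 and 849 in CBP-ifKO PTZ45. All 8 Control libraries, from 939 to 1045 with a median of 1022, lay above all 9 CBP-ifKO libraries, from 689 to 908 with a median of 841. The difference in the fit of all treatments was -0.30 ± 0.05 (log2, SE, n = 8 and 9, adjusted p = 5.905e-07, DESeq2), a level 18.7% lower. Pdgfra was the only member whose Control and CBP-ifKO libraries did not overlap. Among all genes tested 2.99% had no overlap and 2.16% had none with the CBP-ifKO libraries lower. The groups were also apart within each treatment, with differences of -0.29 ± 0.11 in Sal (adjusted p = 0.168), -0.30 ± 0.10 in PTZ0 (adjusted p = 0.0290) and -0.31 ± 0.10 in PTZ45 (adjusted p = 0.0744), each from DESeq2 on those groups alone. In the lane that holds both genotypes, the Control PTZ45 libraries measured 1036 and 1045 and the CBP-ifKO Sal libraries 908, 708 and 784, with genotype and treatment both differing.

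With lane as a term, which is possible only in the fit of all treatments, the Pdgfra difference was -0.29 ± 0.17 (adjusted p = 0.894, DESeq2). Each group lay in a single lane. The genotype term of that fit is therefore set by the differences within treatments given above, with the PTZ0 difference reversed in sign. It cannot separate genotype from lane. The fit with lane called 131 genes in all, against 3606 without the term. Without the 5 libraries that held choroid plexus markers the Pdgfra difference was -0.36 ± 0.06 (adjusted p = 3.147e-07). Fibroblasts of the meninges and vessels express Pdgfra too. The 10 fibroblast markers summed to 1220 to 1933 normalized counts in Controls and 573 to 1758 in CBP-ifKOs, with medians of 1541.5 and 1064. None of them was at 0 in all libraries, and Igf2 was at 0 in at least 1. Dcn alone of them was called over all treatments, at -0.71 ± 0.21 (DESeq2). The highest CBP-ifKO values of Pdgfra, 908 in Sal replicate 1 and 890 in PTZ0 replicate 3, were in the CBP-ifKO libraries with the highest fibroblast sums, 1630 and 1758. In Controls the lowest values of Pdgfra, 939 in PTZ0 replicate 1 and 949 in Sal replicate 1, were in libraries with sums of 1689 and 1933, and the highest, 1045 in PTZ45 replicate 2, was in a library with a sum of 1242. The part of fibroblasts in the Pdgfra difference was not tested.

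NG2 is a surface proteoglycan of precursors and also of pericytes. Cspg4 (chr9:56865033-56899870) measured 284, 340 and 314 in Control Sal, 335, 378 and 307 in Control PTZ0, 311 and 249 in Control PTZ45, 281, 274 and 272 in CBP-ifKO Sal, 264, 220 and 293 in CBP-ifKO PTZ0, and 201, 243 and 198 in CBP-ifKO PTZ45. The Controls reached from 249 to 378 with a median of 312 and the CBP-ifKOs from 198 to 293 with a median of 264, so the genotypes overlapped, although they did not overlap within any treatment. The difference over all treatments was -0.31 ± 0.08 (adjusted p = 0.000647, DESeq2). It was -0.18 ± 0.24 with lane as a term (adjusted p = 0.9997, DESeq2) and -0.35 ± 0.09 without the choroid plexus libraries (adjusted p = 0.00367, DESeq2). The 9 mural cell markers summed to 2700 to 3210 in Controls and 2170 to 3045 in CBP-ifKOs, and their part in the Cspg4 difference was not tested.

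GPR17 is a receptor of precursors that have committed to differentiate. Gpr17 measured 370, 376 and 457 in Control Sal, 394, 351 and 347 in Control PTZ0, 392 and 325 in Control PTZ45, 288, 340 and 354 in CBP-ifKO Sal, 329, 365 and 274 in CBP-ifKO PTZ0, and 312, 263 and 310 in CBP-ifKO PTZ45. Its genotypes overlapped, with medians of 373 in Controls and 312 in CBP-ifKOs, and the difference over all treatments was -0.25 ± 0.07 (adjusted p = 0.00583, DESeq2). Without the choroid plexus libraries it was -0.18 ± 0.08 (adjusted p = 0.137, DESeq2), and with lane as a term -0.41 ± 0.24 (adjusted p = 0.894, DESeq2). Gpr17 overlaps Lims2 on the opposite strand, and the sources do not state whether the counting used strand, so reads of the pair may be mixed.

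The other precursor genes did not pass the test over all treatments. Bcas1, a gene of newly myelinating cells that mature oligodendrocytes keep expressing, measured 1264, 1235 and 1328 in Control Sal, 1254, 1230 and 1373 in Control PTZ0, 1015 and 1594 in Control PTZ45, 1040, 1079 and 1331 in CBP-ifKO Sal, 991, 1296 and 976 in CBP-ifKO PTZ0, and 1215, 1186 and 1469 in CBP-ifKO PTZ45. Enpp6, a phosphodiesterase of newly formed oligodendrocytes, measured 84.2, 116 and 97.6 in Control Sal, 91.3, 87.8 and 108 in Control PTZ0, 76.9 and 111 in Control PTZ45, 96.7, 68.5 and 106 in CBP-ifKO Sal, 92.5, 130 and 85.9 in CBP-ifKO PTZ0, and 124, 110 and 112 in CBP-ifKO PTZ45. The genotypes overlapped in both genes, with differences over all treatments of -0.14 ± 0.08 for Bcas1 (adjusted p = 0.238, DESeq2) and 0.10 ± 0.12 for Enpp6 (adjusted p = 0.616, DESeq2).

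**Figure D2:**
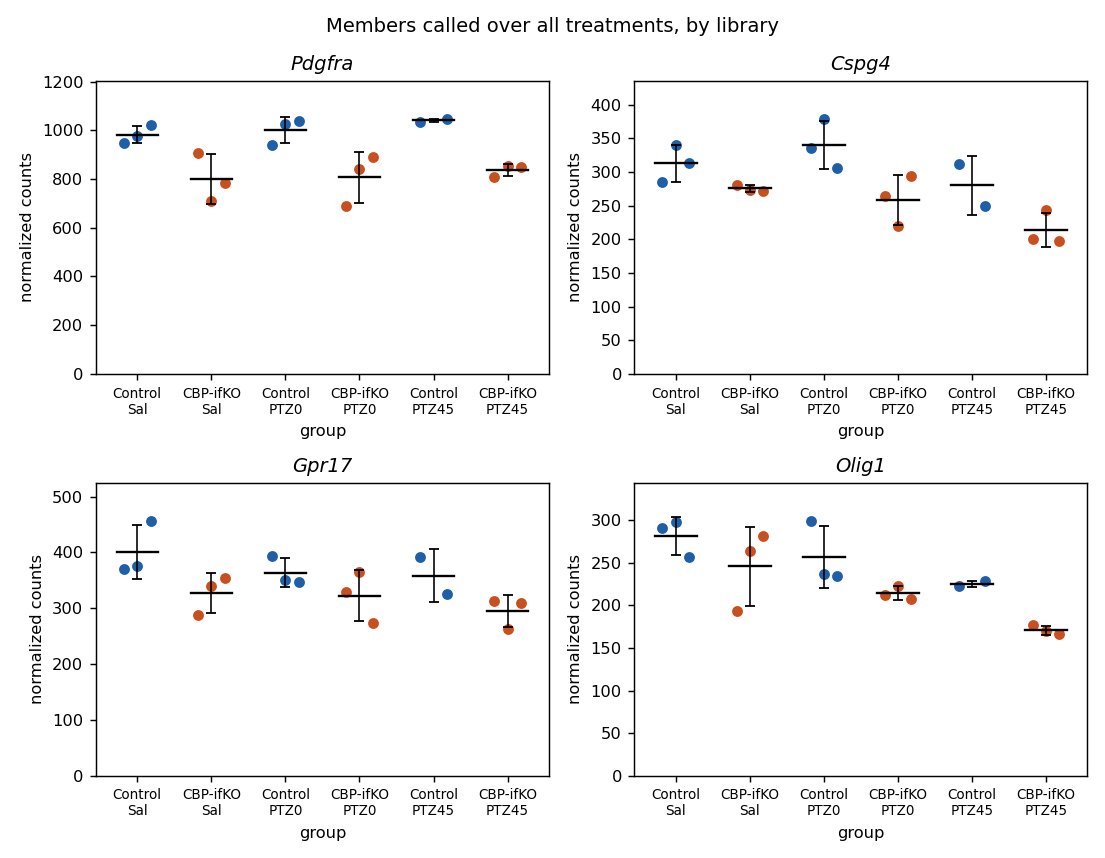
Normalized counts of Pdgfra, Cspg4, Gpr17 and Olig1 by group, 1 point per library, with Control in blue and CBP-ifKO in orange and the mean and SD of each group as bars. All 8 Control points of Pdgfra, from 939 to 1045, lie above all 9 CBP-ifKO points, from 689 to 908, while the points of the other 3 genes overlap between genotypes.

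The lineage factors are transcription factors that precursors and mature cells share. Olig1 (chr16:91269772-91271933), a basic helix-loop-helix factor, measured 291, 298 and 257 in Control Sal, 299, 237 and 235 in Control PTZ0, 223 and 228 in Control PTZ45, 193, 264 and 282 in CBP-ifKO Sal, 212, 223 and 207 in CBP-ifKO PTZ0, and 177, 170 and 166 in CBP-ifKO PTZ45. Its 3 lowest values were those of CBP-ifKO PTZ45, where no library reached the lowest Control library at 223, while the CBP-ifKO Sal libraries overlapped the Controls. The difference over all treatments was -0.28 ± 0.08 (adjusted p = 0.00439, DESeq2), without the choroid plexus libraries -0.22 ± 0.10 (adjusted p = 0.112, DESeq2) and with lane as a term -0.34 ± 0.26 (adjusted p = 0.9997, DESeq2). With GC correction and replicate block together it was -0.19, and the call was lost. Its neighbour Olig2, the related factor required for the lineage, measured 146, 121 and 124 in Control Sal, 154, 139 and 133 in Control PTZ0, 126 and 150 in Control PTZ45, 106, 114 and 142 in CBP-ifKO Sal, 110, 124 and 95.4 in CBP-ifKO PTZ0, and 115, 128 and 127 in CBP-ifKO PTZ45. Sox10, the factor that turns on myelin genes, measured 210, 271 and 254 in Control Sal, 221, 231 and 209 in Control PTZ0, 177 and 222 in Control PTZ45, 176, 193 and 246 in CBP-ifKO Sal, 185, 221 and 182 in CBP-ifKO PTZ0, and 165, 192 and 203 in CBP-ifKO PTZ45. For Olig2 and Sox10 the genotypes overlapped, with differences over all treatments of -0.22 ± 0.09 (adjusted p = 0.0819) and -0.17 ± 0.09 (adjusted p = 0.147), both by DESeq2.

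Of the mature genes 4 were lower in CBP-ifKOs in PTZ0, and none passed the test in Sal, in PTZ45 or over all treatments. Their median difference was -0.17 in Sal, -0.21 in PTZ0 and 0.06 in PTZ45, beside medians of all genes tested of 0.00, 0.00 and 0.00. In the fit of all treatments 19 of 23 were below 0 with a median of -0.10. With lane as a term 21 of 23 were above 0 with a median of 0.11. As for Pdgfra, the genotype term of that fit adds the Sal and PTZ45 differences and subtracts the PTZ0 difference. Its sign is set by these same differences, and no direction free of lane can be read from it. Of the 3 comparisons within a treatment, called members were found in PTZ0 alone, where 5 of 30 tested were lower, beside 6.68% of the 12752 genes tested called and 5.25% called lower. They were the mature genes Cnp, Mal, Cldn11 and Trf and the precursor gene Pdgfra, and Nkx6-2 was left without an adjusted p by independent filtering. Markers of other cells were called in this comparison too. The astrocyte markers Acsbg1 (-0.34 ± 0.07) and Aldoc (-0.24 ± 0.05), the mural marker Vtn (-0.34 ± 0.11) and the neuronal markers Nrgn (-0.37 ± 0.08) and Snap25 (-0.20 ± 0.05) were lower, and the neuronal markers Neurod2 (0.30 ± 0.09) and Prox1 (0.34 ± 0.08) were higher. No microglial marker was called, and their summed level was 4730, 4463 and 4628 normalized counts in Control PTZ0 and 3976, 4474 and 3935 in CBP-ifKO PTZ0, where replicate 2 alone overlapped the Controls. The part of other cells in the PTZ0 calls was not tested. In Sal (2.04% of genes called) and in PTZ45 (3.07% called) no member was called, and at an unadjusted p under 0.05 DESeq2 counted 4 and 3 members of 31, beside 10.7% and 11.2% of all genes, and edgeR called none in either. Whether the difference in PTZ0 or in PTZ45 differs from that in Sal was tested by the interactions given further on. The differences in PTZ0 and PTZ45 were not tested against each other.

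Cnp (chr11:100574904-100591729) measured 2591, 2609 and 2502 in Control Sal, 2626, 2415 and 2463 in Control PTZ0, 1976 and 2362 in Control PTZ45, 1827, 2025 and 2750 in CBP-ifKO Sal, 2016, 2301 and 1829 in CBP-ifKO PTZ0, and 2420, 2158 and 2442 in CBP-ifKO PTZ45. In PTZ0 the 3 CBP-ifKO libraries lay below the 3 Control libraries, with a difference of -0.29 ± 0.08 (adjusted p = 0.00902, DESeq2). In Sal the highest value of Cnp, 2750, was that of a CBP-ifKO library, and in PTZ45 the genotypes overlapped too. Cnp overlaps Dnajc7 on the opposite strand.

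Mal measured 2235, 2017 and 2138 in Control Sal, 2246, 2114 and 2189 in Control PTZ0, 1723 and 2545 in Control PTZ45, 1790, 1658 and 2216 in CBP-ifKO Sal, 1620, 2083 and 1705 in CBP-ifKO PTZ0, and 2406, 1803 and 2134 in CBP-ifKO PTZ45. Cldn11, encoding the claudin of the tight junctions between myelin lamellae, measured 907, 926 and 897 in Control Sal, 906, 812 and 884 in Control PTZ0, 700 and 838 in Control PTZ45, 732, 668 and 962 in CBP-ifKO Sal, 682, 798 and 655 in CBP-ifKO PTZ0, and 840, 672 and 848 in CBP-ifKO PTZ45. Trf measured 2972, 2918 and 2693 in Control Sal, 2808, 2942 and 3009 in Control PTZ0, 2268 and 2967 in Control PTZ45, 2464, 2116 and 3054 in CBP-ifKO Sal, 2295, 2583 and 2703 in CBP-ifKO PTZ0, and 2943, 2690 and 2978 in CBP-ifKO PTZ45. In PTZ0 each had its 3 CBP-ifKO libraries below the 3 Control libraries, with DESeq2 differences of -0.27 ± 0.08 for Mal (adjusted p = 0.0242), -0.29 ± 0.09 for Cldn11 (adjusted p = 0.0399) and -0.21 ± 0.07 for Trf (adjusted p = 0.0467). In PTZ0, 11 of the 30 members tested had no overlap with CBP-ifKOs lower, against 15.2% of all genes tested, and none had no overlap with CBP-ifKOs higher, against 13.6%.

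The PTZ0 calls moved with the method and with single libraries. The quasi-likelihood test of edgeR called Cnp alone, and without the choroid plexus libraries, which leaves 2 libraries a group, no member was called (1.04% of all genes called) although the 5 differences lay between -0.36 and -0.23. Without CBP-ifKO PTZ0 replicate 2, the library of that group with the highest mature genes, 13 of 30 members were called, all lower, in a fit that called 6.89% of all genes. Without Control PTZ0 replicate 1 or replicate 3 no member was called, while 2.49% and 2.85% of all genes were. Without each of the remaining 3 libraries 1 or 2 members were called, beside 2.42% to 5.74% of all genes, so the share of all genes called moved with the library left out as well. In Sal, leaving out CBP-ifKO Sal replicate 3 raised the members called from 0 to 9, all of them mature genes and all lower, while the share of all genes called went from 2.04% to 5.48%. Leaving out replicate 1 called Pdgfra alone, with 175 of 15207 genes called.

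**Figure D3:**
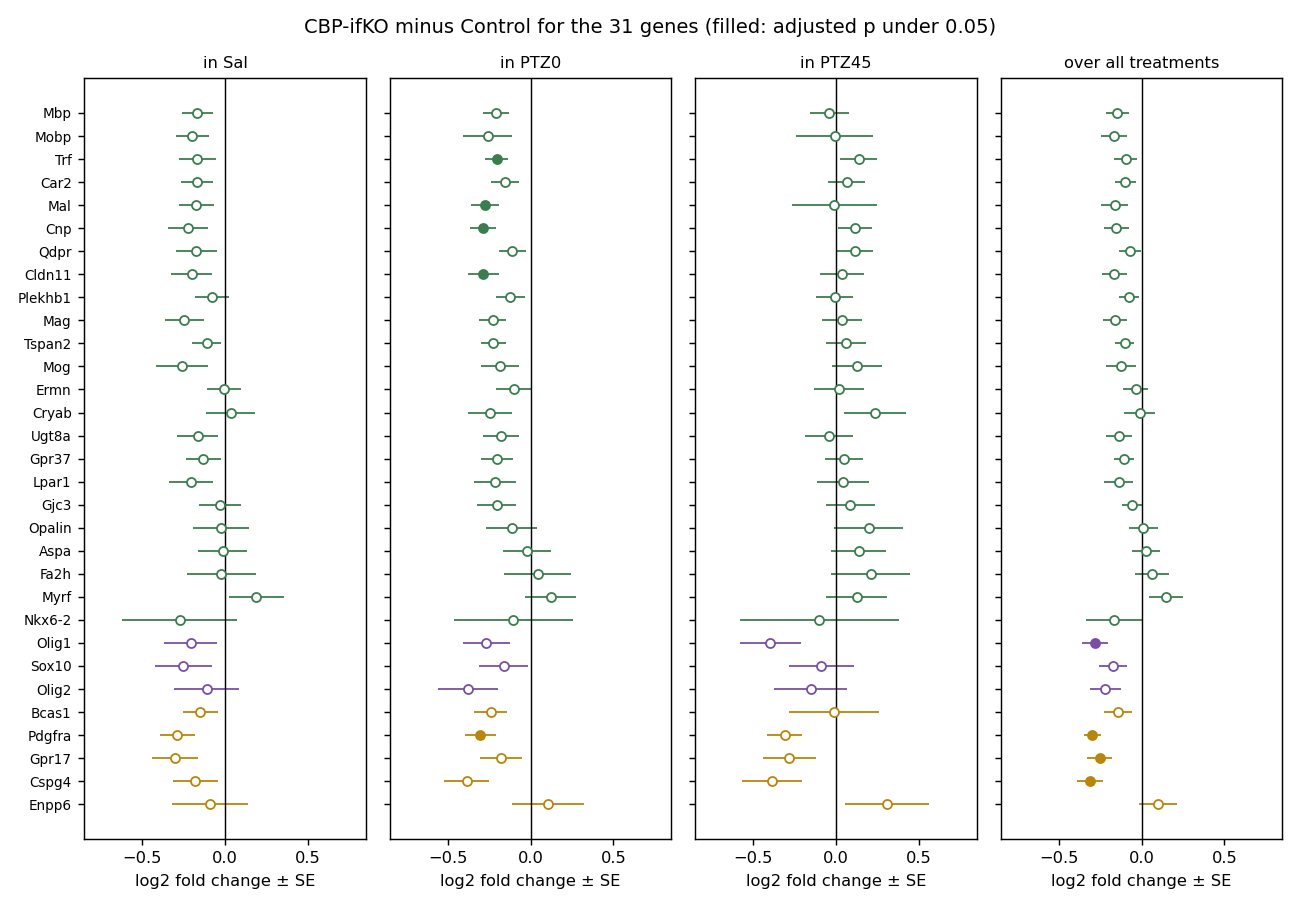
Log2 fold change of CBP-ifKO against Control with its standard error for the 31 genes in Sal, PTZ0, PTZ45 and over all treatments, with filled points where the adjusted p was under 0.05. Filled points appear in PTZ0 (5) and over all treatments (4), all of them below 0, and the mature genes lie around 0 in PTZ45.

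The genes of compact myelin overlapped between genotypes, and their spread was wide in Control PTZ45. Mbp measured 13224, 13281 and 14023 in Control Sal, 13193, 12117 and 12475 in Control PTZ0, 10517 and 14894 in Control PTZ45, 10697, 11491 and 13972 in CBP-ifKO Sal, 10414, 12583 and 9686 in CBP-ifKO PTZ0, and 12524, 11692 and 12784 in CBP-ifKO PTZ45. Mobp measured 6566, 6702 and 6773 in Control Sal, 6629, 6734 and 6884 in Control PTZ0, 5516 and 7927 in Control PTZ45, 5494, 5100 and 6878 in CBP-ifKO Sal, 5066, 6765 and 5066 in CBP-ifKO PTZ0, and 7284, 5762 and 6965 in CBP-ifKO PTZ45. In both genes the highest library of all was Control PTZ45 replicate 2, and the lowest Control library was replicate 1 of the same group, so that these 2 libraries spanned the whole range of the Controls.

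Mag, the adhesion protein of the inner myelin membrane, measured 1413, 1336 and 1369 in Control Sal, 1318, 1345 and 1211 in Control PTZ0, 1008 and 1284 in Control PTZ45, 994, 1064 and 1414 in CBP-ifKO Sal, 1122, 1182 and 1002 in CBP-ifKO PTZ0, and 1191, 1064 and 1258 in CBP-ifKO PTZ45. Mog, an immunoglobulin-type protein of the outer myelin surface, measured 471, 436 and 429 in Control Sal, 458, 438 and 418 in Control PTZ0, 356 and 475 in Control PTZ45, 337, 288 and 479 in CBP-ifKO Sal, 397, 425 and 336 in CBP-ifKO PTZ0, and 483, 413 and 460 in CBP-ifKO PTZ45. Opalin, a membrane glycoprotein of myelinating cells, measured 185, 202 and 180 in Control Sal, 192, 171 and 175 in Control PTZ0, 150 and 225 in Control PTZ45, 176, 156 and 217 in CBP-ifKO Sal, 172, 169 and 158 in CBP-ifKO PTZ0, and 224, 186 and 232 in CBP-ifKO PTZ45. The genotypes overlapped in each gene, with differences over all treatments of -0.16 ± 0.07 for Mag (adjusted p = 0.102), -0.12 ± 0.09 for Mog (adjusted p = 0.376) and 0.01 ± 0.09 for Opalin (adjusted p = 0.953), all by DESeq2.

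Cryab, a small heat shock protein abundant in oligodendrocytes, measured 270, 251 and 314 in Control Sal, 335, 353 and 296 in Control PTZ0, 219 and 309 in Control PTZ45, 270, 257 and 324 in CBP-ifKO Sal, 234, 303 and 289 in CBP-ifKO PTZ0, and 288, 280 and 361 in CBP-ifKO PTZ45. Myrf, the transcription factor that starts and maintains myelin gene expression, measured 225, 293 and 349 in Control Sal, 320, 272 and 244 in Control PTZ0, 278 and 291 in Control PTZ45, 360, 353 and 280 in CBP-ifKO Sal, 382, 250 and 282 in CBP-ifKO PTZ0, and 305, 380 and 242 in CBP-ifKO PTZ45. Cryab differed between genotypes by -0.01 ± 0.09 over all treatments (adjusted p = 0.954, DESeq2), with a 95% interval from -0.19 to 0.17, and by 0.52 ± 0.27 with lane as a term (adjusted p = 0.782, DESeq2), the value furthest from 0 among the 31 in that fit. Myrf was the gene furthest above 0 among the mature members, at 0.15 ± 0.10 over all treatments (adjusted p = 0.361, DESeq2), with overlapping genotypes.

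**Figure D4:**
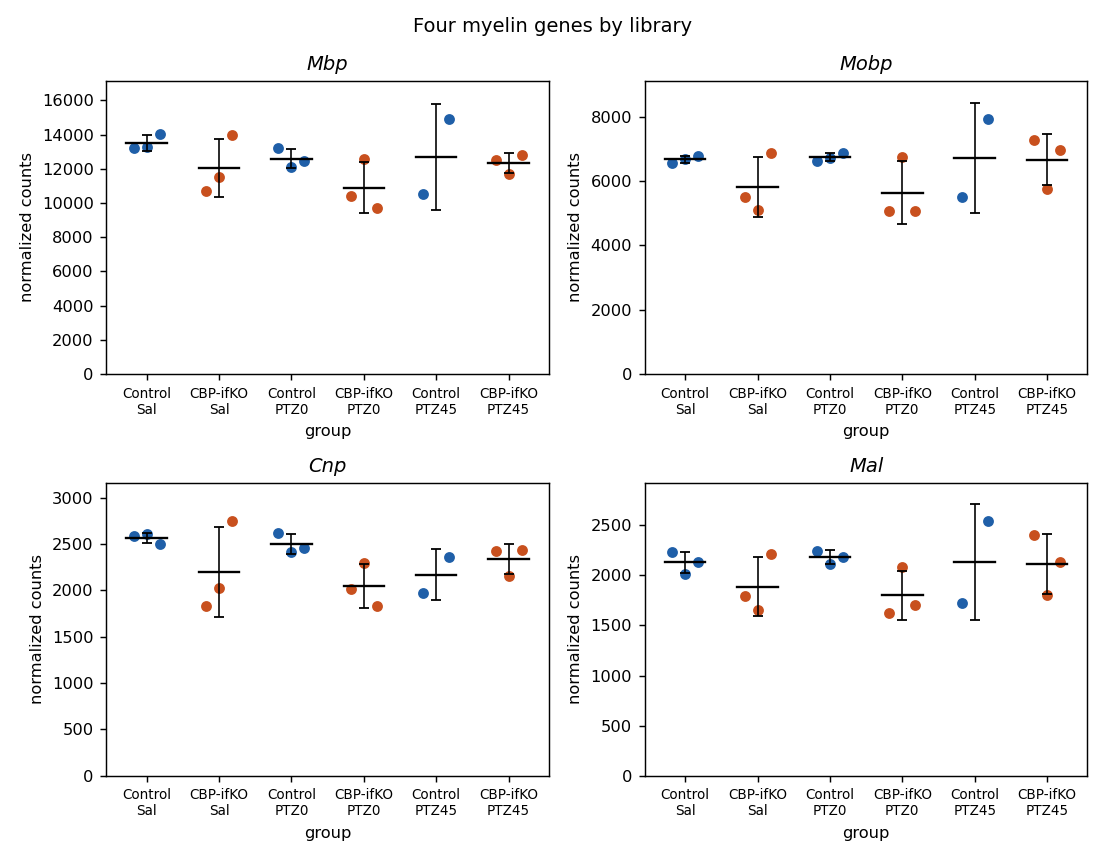
Normalized counts of Mbp, Mobp, Cnp and Mal by group, 1 point per library, with Control in blue and CBP-ifKO in orange and the mean and SD of each group as bars. The 2 Control PTZ45 libraries stand apart, for Mbp at 10517 and 14894, and CBP-ifKO Sal replicate 3 stands above the other libraries of its group.

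The remaining mature members showed no call in any of the 12 comparisons. Car2 ran from 1583 to 2132 normalized counts over the 17 libraries, Plekhb1, an adaptor protein, from 1266 to 1759, Tspan2, a tetraspanin of myelin, from 1072 to 1495, and Qdpr, a pteridine reductase enriched in oligodendrocytes, from 799 to 1132. Gpr37, a receptor of myelinating cells, ran from 656 to 912, Ermn, a cytoskeletal protein of late myelination, from 650 to 1058, and Ugt8a, the enzyme that makes the myelin lipid galactosylceramide, from 569 to 1016. Lower still were Lpar1, a lysophosphatidic acid receptor, from 338 to 558, Aspa, the enzyme that splits N-acetylaspartate, from 237 to 404, Gjc3, a gap junction protein, from 311 to 444, Fa2h, the enzyme that hydroxylates myelin lipids, from 83.8 to 135, and Nkx6-2 from 17.9 to 48.0.

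Neither kindling nor the last PTZ injection changed a member past the test. Kindled mice that received saline were compared with mice never kindled, and 0 members were called in Controls (0.00843% of 35602 genes called) and in CBP-ifKOs (0.0112% of 35705 called) by DESeq2, with 0 of 31 at an unadjusted p under 0.05 in each genotype (0.581% and 0.336% of all genes) and 0 called by edgeR. The median of the 31 differences was -0.02 in Controls and -0.06 in CBP-ifKOs. The first of these comparisons lies within a lane.

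PTZ45 against Sal gave no called member in Controls (1.17% of 17367 genes called) or in CBP-ifKOs (0.294% of 19757 called), with 5 members of 31 at an unadjusted p under 0.05 by DESeq2 in each and 0 called by edgeR. In Controls these 5 were Cnp, Mag, Cldn11, Qdpr and Olig1, all below 0, beside 7.66% of all genes tested at this level. In CBP-ifKOs they were Aspa, Gjc3 and Tspan2 above 0 and Cspg4 and Olig1 below 0, beside 4.33% of all genes. Olig1 differed by -0.32 ± 0.16 in Controls (adjusted p = 0.617, DESeq2) and by -0.52 ± 0.18 in CBP-ifKOs (adjusted p = 0.422, DESeq2). Without CBP-ifKO Sal replicate 1 the CBP-ifKO difference was -0.68, and Olig1 was called. In both genotypes the PTZ45 libraries of Olig1 lay below the Sal libraries. Lane changed with treatment in both, so lane and treatment cannot be told apart there.

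PTZ45 against PTZ0, the effect of the last injection in kindled mice, gave no called member in Controls (1.25% of 17982 genes called), with 3 of 31 (Cnp, Cryab and Qdpr, all lower) at an unadjusted p under 0.05 by DESeq2 beside 8.3% of all genes, and 0 called by edgeR. Leaving out either of the 2 Control PTZ45 libraries leaves that group with 1, whose spread is then taken from the PTZ0 libraries alone, so calls of such a fit set a single library against PTZ0. Replicate 2 alone gave 4 members above PTZ0 (Bcas1, Ermn, Mbp and Mobp, with 7.16% of 6973 genes called), and replicate 1 alone gave 6 below it (Car2, Cnp, Mal, Mbp, Mobp and Trf, with 1.18% of 16935 called). Mbp and Mobp thus lay on opposite sides of the PTZ0 mean in the 2 Control PTZ45 libraries.

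In CBP-ifKOs the same comparison lies within a lane. No member was called (0.0872% of 26374 genes called) by DESeq2 or edgeR, while 12 of 31 had an unadjusted p under 0.05 (11 higher, and Olig1 lower), beside 2.12% of all genes tested. The mature genes lay above 0 in 22 of 23 cases, with a median of 0.19 beside 0.00 for all genes tested. Gjc3 at 0.36 ± 0.12 had the lowest adjusted p (0.821, DESeq2), and its 3 PTZ45 libraries lay above its 3 PTZ0 libraries. Without CBP-ifKO PTZ0 replicate 2, Mbp and Mobp were called, both higher, beside 0.108% of all genes. The genes share these 6 libraries and rise and fall together among replicates, as described next, so they are not separate pieces of evidence.

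Neither interaction called a member. The test of whether the PTZ45 response differs between genotypes called 0.329% of 20945 genes, and 0 of 31 members by DESeq2, with 0 at an unadjusted p under 0.05 beside 1.76% of all genes and 0 by edgeR. The median of the mature genes was 0.185 with a median SE of 0.187. The test of whether the difference between kindled and never kindled mice depends on genotype called 0.00% of 38110 genes by DESeq2, with 141 genes (0.37%) and 0 members at an unadjusted p under 0.05 and no member called by edgeR. Pdgfra had interaction terms of -0.03 ± 0.14 (95% interval from -0.31 to 0.24) and -0.02 ± 0.14 (95% interval from -0.30 to 0.26).

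The mature genes rose and fell together from library to library. After subtraction of the group means on the log2 scale, the median deviation of the 23 genes ran from -0.18 in Control PTZ45 replicate 1 to 0.24 in CBP-ifKO Sal replicate 3. All 23 were higher in Control PTZ45 replicate 2 than in replicate 1, 20 of 23 had their highest CBP-ifKO Sal value in replicate 3, 18 of 23 had their highest CBP-ifKO PTZ0 value in replicate 2, and 19 of 23 had their lowest CBP-ifKO PTZ45 value in replicate 2. In Control Sal no library held more than 10 of the 23 highest values, and the medians there reached no higher than 0.01. Markers of microglia moved in part of the same libraries. Their summed level was 3549, 3810 and 4946 normalized counts in CBP-ifKO Sal, 3976, 4474 and 3935 in CBP-ifKO PTZ0, 4503, 3715 and 4747 in CBP-ifKO PTZ45 and 4033 and 4415 in Control PTZ45, so the library with the highest or lowest mature genes described here was also the highest or lowest of its group in microglial markers. Their part in the shared variation was not tested.

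**Figure D5:**
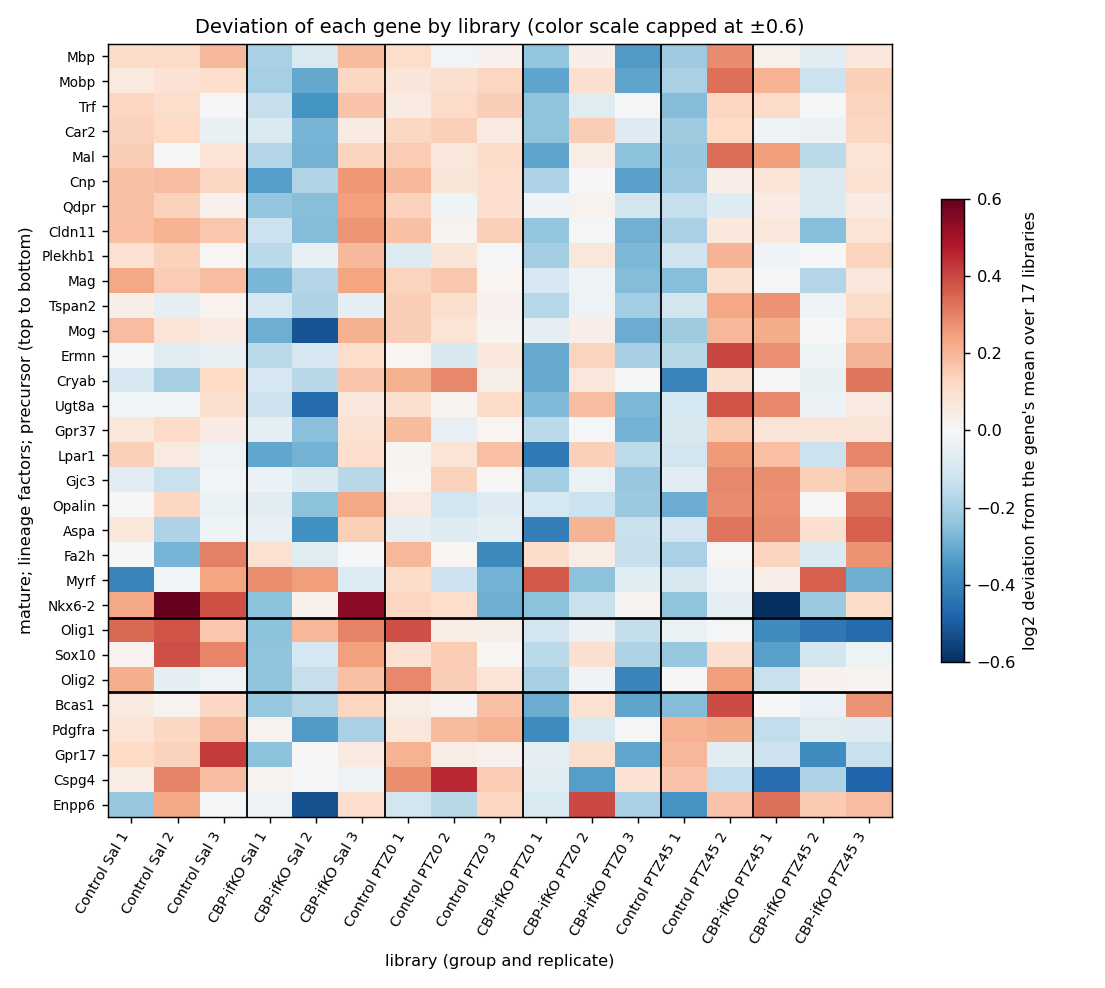
Log2 deviation of each gene (rows) from its mean over 17 libraries (columns, by group and replicate), with mature genes at the top, lineage factors in the middle and precursor genes at the bottom. Red is above and blue below the mean, with colors capped at 0.6. Most mature genes are high in Control PTZ45 replicate 2 and low in CBP-ifKO PTZ0 replicates 1 and 3, while Pdgfra, Cspg4 and Olig1 follow other patterns.

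How closely a gene followed the others was described by Pearson's r of its deviations with the median of the other mature genes over the 17 libraries, which share depth and handling within a library. It was 0.95 for Mobp, 0.93 for Mal and Cldn11, 0.91 for Mog and 0.90 for Mbp, and 0.47 for Gjc3, 0.36 for Nkx6-2 and 0.30 for Fa2h, and -0.46 for Myrf. Of the genes outside the mature class, Bcas1 followed the median of all mature genes at 0.87, Enpp6 at 0.73, Olig2 at 0.70 and Sox10 at 0.67. Olig1 at 0.39 and Gpr17 at 0.26 followed it less closely, Pdgfra stood at 0.04 and Cspg4 went the other way at -0.64. Spearman's rho was 0.85 for Bcas1, -0.09 for Pdgfra and -0.74 for Cspg4. Without the libraries of the highest and lowest median, r was 0.83 for Bcas1, 0.09 for Pdgfra and -0.70 for Cspg4.

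Likeness was also ranked over the 13019 other genes whose mean reached 50 normalized counts. Among the 10 most similar were 5730455P16Rik, Stx7, Ss18l2, Dclk3, Chmp5, Csrp1, Ctss, Rpl13a and Mosmo, with r from 0.90 to 0.93. Ctss is a cathepsin and 1 of the 12 microglial markers, and none of the other 8 is on a list used here. The trend of a library over GC content had r = -0.02 with the median deviation, and the trend over gene length r = -0.53. With the GC trend removed, 20 of 23 mature genes still had their highest CBP-ifKO Sal value in replicate 3. The part of the length trend in the shared variation was not tested.

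Promoter sequences are shown for 2 precursor genes that were lower in CBP-ifKOs, Pdgfra and Cspg4, and for 2 mature genes that moved together, Mobp and Cnp. Each is the 250 bases before the start in the RefSeq promoter table (GRCm38.p6), 5′ to 3′ on the + strand, at chr5:75152001-75152250 for Pdgfra, chr9:56864854-56865103 for Cspg4, chr9:120149492-120149741 for Mobp and chr11:100574689-100574938 for Cnp, and capitals mark motif letters on either strand. The motif of SOX-type factors was searched as ACAAAG. The E-box of helix-loop-helix factors was searched as CAGCTG. The motif of SP-type factors was searched as GGGCGG. The motif found before many inducible starts was searched as TATAAA.
Pdgfra: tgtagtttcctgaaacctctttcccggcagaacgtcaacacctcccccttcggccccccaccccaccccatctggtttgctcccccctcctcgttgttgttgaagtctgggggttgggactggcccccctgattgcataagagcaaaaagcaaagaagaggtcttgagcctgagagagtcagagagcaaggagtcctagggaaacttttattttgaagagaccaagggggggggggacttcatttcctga
Cspg4: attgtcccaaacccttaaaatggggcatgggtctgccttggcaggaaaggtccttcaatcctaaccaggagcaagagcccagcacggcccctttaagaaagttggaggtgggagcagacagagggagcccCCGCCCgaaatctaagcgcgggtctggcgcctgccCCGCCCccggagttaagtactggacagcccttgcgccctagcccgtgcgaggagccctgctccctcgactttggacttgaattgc
Mobp: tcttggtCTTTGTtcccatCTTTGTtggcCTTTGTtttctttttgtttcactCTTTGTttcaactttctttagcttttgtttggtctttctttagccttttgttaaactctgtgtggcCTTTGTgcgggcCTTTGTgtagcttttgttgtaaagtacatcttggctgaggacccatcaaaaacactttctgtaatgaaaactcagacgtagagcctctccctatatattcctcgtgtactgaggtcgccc
Cnp: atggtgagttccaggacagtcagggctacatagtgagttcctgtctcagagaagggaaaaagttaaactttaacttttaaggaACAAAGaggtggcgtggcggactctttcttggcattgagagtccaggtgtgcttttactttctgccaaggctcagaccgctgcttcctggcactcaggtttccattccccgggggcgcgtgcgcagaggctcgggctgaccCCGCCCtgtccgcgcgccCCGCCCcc

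The table held 27 promoters of 21 members, and none for Bcas1, Car2, Cryab, Fa2h, Gpr17, Mbp, Myrf, Olig1, Sox10 and Trf. ACAAAG or its reverse complement occurred in 9 of 23 promoters of 17 mature genes (39.1%), beside 16.5% of all 32851 promoters, and in 0 of 3 of precursor genes. Mobp carried it 6 times, Cnp 1 time and Mog, another mature gene that moved with the others, 0 times. GGGCGG was found in 26.1% of promoters of mature genes beside 32.7% of all, and 2 times each in Cspg4 and Cnp. CAGCTG occurred in 1 of 23 mature promoters and in 4271 of all 32851, TATAAA in 4.35% of the mature promoters and 12.4% of all, and the Pdgfra window held none of the 4 motifs. These matches describe letters and not binding.

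Genes of the same pathway outside the 31 were read from lists. Of 34 other genes of myelinating oligodendrocytes, 33 were tested over all treatments, 0 were called higher and 4 lower, with a median difference of -0.09 beside 0.01 for all genes tested. Lower calls made up 11.5% of all genes in this fit, so 4 of 33 is near the background. The 4 were Lgi3 at -0.40 ± 0.07, Ndrg1 at -0.26 ± 0.05, Tmeff2 at -0.25 ± 0.04 and Gsn at -0.18 ± 0.06, and Lgi3, Tmeff2 and Gsn were also called lower in PTZ0, with Lgi3 called lower in Sal as well. Neurons also express Lgi3 and Tmeff2.

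Of 20 other precursor genes, 20 were tested over all treatments, 0 were called higher and 9 lower, with a median of -0.18 and all 20 below 0, beside 19.3% of all genes called and 11.5% called lower. Among the called genes whose mean reached 50 normalized counts, the 5 furthest from 0 were Sox11 at -0.53 ± 0.08, Neu4 at -0.46 ± 0.11, Rprm at -0.30 ± 0.09, Lhfpl3 at -0.25 ± 0.08 and Ptprz1 at -0.22 ± 0.04. Sox11 marks young neurons too, and the part of other cells in these differences was not tested. With lane as a term 0 of 19 tested were called and the median was -0.22, and without the choroid plexus libraries 5 of 17 were called lower, beside 11.8% of the 15846 genes tested called. Of 16 genes of sterol synthesis, the pathway that supplies the cholesterol of myelin and is used by all cells, 5 were lower and 0 higher over all treatments (among them Srebf2 at -0.28 ± 0.06, Insig1 at -0.23 ± 0.06 and Hmgcs1 at -0.18 ± 0.05).

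Markers of other cells were called in the same fit, in which 19.3% of all genes were called, and the counts of endothelial, mural and fibroblast markers were below that share. Of 12 astrocyte markers 5 were lower (Aldoc, Acsbg1, Gjb6, Slc1a3 and Gja1) and Slc4a4 was higher over all treatments. Of 9 markers of excitatory neurons Nrgn, Rbfox3 and Snap25 were lower and Neurod2 and Prox1 were higher. Of 8 interneuron markers Sst and Gad1 were lower, of 10 endothelial markers Ly6c1 was lower, of 9 mural markers Rgs5 was lower, and of 9 fibroblast markers tested Dcn was lower. Of 12 microglial markers DESeq2 called 0, with 1 at an unadjusted p under 0.05 and all 12 below 0. The summed level of the mature members ran from 33160 to 44810 normalized counts in Controls and from 31900 to 42460 in CBP-ifKOs, and that of the precursor members from 2831 to 3324 and from 2366 to 2938.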

How the data were processed

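Hippocampal RNA of 17 mice was sequenced as single-end reads of 50 bases, 1 mouse per library. The values are raw gene counts as deposited by the authors. Per the study's methods and the submitters' processing notes, the authors checked reads with FastQC 0.11.8, trimmed them with Trim Galore 0.6.4, aligned them with STAR 2.6.1 to GRCm38, kept mapping qualities above 10 and counted them with Rsubread on Ensembl 99 exons. Whether the counting used strand is not given in the sources used here. Of 18 count columns, 1 matched no sample and was not used. Gene positions came from GENCODE M21, which held 99.6% of the IDs, and exonic lengths from the deposited count table.

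Genes with at least 1 count were tested with the Wald test of DESeq2 1.42.0 in R 4.3.3, on the groups compared alone, with Benjamini-Hochberg adjustment over all genes tested and a threshold of 0.05. The comparison over all treatments had treatment as a covariate, and interactions used the groups they involve. The authors' own analysis used DESeq2 1.30.1. Normalized counts are counts divided by size factors over the 17 libraries. The p-values measure the spread between these mice. The scripts were tested on simulated data.

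Alternatives were edgeR 4.0.16 (quasi-likelihood test), TMM size factors, a filter of 10 counts in 2 libraries, 1 fit of all 17 libraries, a replicate block, a loess correction for GC content with and without that block, and the removal of 1 library at a time. Leaving out the 5 choroid plexus libraries, a lane term and removal of the GC trend from the shared variation were chosen after seeing the data. The members and lists were chosen with earlier results of these data known. Values in every library are given for called members and for 17 listed genes. Genes outside the 31 are named if called in a list (at most 5 a direction by size, mean of at least 50 normalized counts) or among the 10 most like the mature genes. Some genes that this rule would name are not reported here.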

Additional observations from a re-analysis of the deposited data

How the results depend on the processing

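The number of members called in PTZ0 between genotypes was 5, and it was 1 with edgeR, 2 with TMM size factors, 3 with the filter of 10 counts in 2 libraries, 1 in the fit of all 17 libraries and 0 without the choroid plexus libraries. With the replicate block it was 2 (Cnp and Pdgfra), and 0 with the block and the GC correction together. Over all treatments the 4 calls fell to 2 without the choroid plexus libraries and to 0 with lane as a term, and were 4 with the replicate block and 3 with the block and the GC correction together, which lost Olig1. In PTZ45 the GC correction called 1 member, Pdgfra. Leaving out 1 library at a time gave 0 to 13 calls in PTZ0, 0 to 9 in Sal and 4 to 13 over all treatments. The 13 calls over all treatments were without Control PTZ45 replicate 1 (17.2% of all genes called), and 11 were made without CBP-ifKO Sal replicate 3 (20.4%). It gave 0 to 1 for Control PTZ45 against Sal (Mbp, without Control PTZ45 replicate 2), 0 to 1 for CBP-ifKO PTZ45 against Sal, 0 to 6 for Control PTZ45 against PTZ0 (in both, a lone Control PTZ45 library is assumed to vary like the other group), 0 to 2 for CBP-ifKO PTZ45 against PTZ0 and 0 to 1 for the PTZ45 interaction (Cnp, 0.53, without CBP-ifKO Sal replicate 3). Of the 10 outside genes most like the mature genes, 6 were kept without the libraries of highest and lowest median deviation. The cause of these shifts was not tested, except that fewer libraries enter the fits that leave some out.

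The replicate numbers, taken from the sample titles, did not meet the criterion for pairing in any comparison tested. Of 15 pairs of groups, 1 had all 3 correlations above 0.1 (Control PTZ0 with CBP-ifKO PTZ45, 0.16 to 0.53), and it is not a comparison made here. The library name of Control PTZ45 replicate 2 carries the number 3, so title and library numbers differ there. By the title numbers, of 40 pairs of libraries with the same number, 15 had a correlation above 0.1, with a range from -0.52 to 0.53, and in 13 of 60 matches a library correlated best with its own number. Without the GC correction, the replicate block changed the count of calls in PTZ0 alone of the 12 comparisons. Nkx6-2 had no adjusted p in PTZ0. The lowest members had as few as 15 counts in a library, which limits what could be detected for Nkx6-2 and Enpp6.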
